A study of Homo sapiens with 8 samples.

Results

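This account concerns 10 imprinted growth genes other than IGF2: the noncoding RNAs H19 and MEG3 and the protein-coding genes CDKN1C, DLK1, PEG3, PEG10, MEST, PLAGL1, GRB10 and NDN. They were taken as a list of names, each matched to 1 Ensembl gene identifier, and make up 10 of the 58302 genes in the count tables. RNA was sequenced from RD cells, an established human line from an embryonal rhabdomyosarcoma, a cancer of cells committed to skeletal muscle. The 4 shPROX1 libraries came from RD cells carrying a short hairpin RNA against PROX1, a homeobox transcription factor, and the 4 control libraries from RD cells carrying a scrambled hairpin. Both groups therefore carried a hairpin. The labels do not give the number of PROX1 hairpins or of cell clones. Levels are in CPM, gene counts scaled to a common library size with TMM factors, and log2 changes are shPROX1 minus control with the standard error of the edgeR fit.

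Imprinted genes are transcribed mainly from the copy inherited from 1 parent, because marks set on DNA in the egg or sperm silence the other copy. They lie in clusters, each ruled by a control region, and many act on fetal growth: as a rule of thumb, paternally expressed genes promote it and maternally expressed genes restrain it. In embryonal rhabdomyosarcoma the 11p15 cluster, which holds H19, IGF2 and CDKN1C, is known for loss of the maternal copy or of imprinting. The counts used here are summed over both copies, so that they show how much of a gene was present and not from which copy.

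PROX1 itself was lower in every shPROX1 library. It had 7.80, 10.4, 9.14 and 8.26 CPM in shPROX1 replicates 1 to 4, against 20.1, 16.3, 16.6 and 21.3 CPM in control replicates 1 to 4 (log2 change -1.07 ± 0.15, edgeR quasi-likelihood test, adjusted p = 4.89e-06). The fitted RNA level was 47.6% of control with a 95% interval of 38.6% to 58.9%. That is a smaller loss than the 75% stated in the series design, which may rest on another measure. Libraries held 3747090 to 4301987 counts in shPROX1 and 4055205 to 4865161 in control, and edgeR called 4364 of 12392 tested genes (35.2%), 2147 higher and 2217 lower. The median log2 change of all tested genes was -0.01. The muscle markers MYOD1 (73.1 ± 4.35 CPM in shPROX1 and 71.0 ± 7.37 CPM in control, SD, n = 4 each) and DES (479 ± 19.9 and 544 ± 19.1 CPM) were present. Of the 7 muscle markers on the list, 1 rose (TNNT2), 3 fell (MYOG by 1.32, MYH3 by 0.94 and DES by 0.18 on the log2 scale) and MYF6 was below the filter. Blood markers summed to 0 to 0.236 CPM in shPROX1 and 0 to 0.406 CPM in control, trophoblast markers to 0 and to 0 to 0.236 CPM, and neural markers to 0 to 0.944 CPM and 0.236 to 0.406 CPM. Fibroblast markers summed to 60.4 to 86.9 CPM in shPROX1 and 56.0 to 62.0 CPM in control, mostly COL1A1, with DCN, LUM and PDGFRA too low to test. COL1A2 had 20.5 CPM in shPROX1 replicate 4, against 0.994 to 1.42 CPM in the other shPROX1 libraries and 0 to 2.64 CPM in control. Endothelial markers summed to 46.1 to 50.4 CPM in shPROX1 and 46.5 to 59.8 CPM in control, nearly all TEK and FLT4, with CDH5 and LYVE1 at 0. Epithelial markers summed to 258 to 285 CPM in shPROX1 and 174 to 207 CPM in control, mostly KRT18, while EPCAM and CDH1 had at most 1 count in any library. KRT18 (log2 change 0.47) and COL1A1 (0.24) rose. The part of these markers in the results below was not tested.

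The CpG-rich starts of imprinted genes are where parental methylation is often found, so the start windows of contrasting genes are shown first. RefSeq (GRCh38.p14) windows of 300 bases, 250 before to 50 after a start, were at hand for 6 of the 10 genes (20 windows, some overlapping). For each gene below, the window with the most CpG is given, on the gene's strand. Capitals mark TGCCGC on either strand, the site read by ZFP57, a zinc finger protein that keeps methylation at imprinting control regions. The E-box CAGCTG, which myogenic factors read, was searched as well.
PLAGL1 (chr6:144008210-144008509, minus strand): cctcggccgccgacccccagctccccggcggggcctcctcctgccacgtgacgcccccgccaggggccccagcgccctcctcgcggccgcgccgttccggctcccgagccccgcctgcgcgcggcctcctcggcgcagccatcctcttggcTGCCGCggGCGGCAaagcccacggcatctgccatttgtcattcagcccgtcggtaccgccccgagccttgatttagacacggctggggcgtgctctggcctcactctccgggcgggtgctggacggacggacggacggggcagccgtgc
NDN (chr15:23687256-23687555, minus strand): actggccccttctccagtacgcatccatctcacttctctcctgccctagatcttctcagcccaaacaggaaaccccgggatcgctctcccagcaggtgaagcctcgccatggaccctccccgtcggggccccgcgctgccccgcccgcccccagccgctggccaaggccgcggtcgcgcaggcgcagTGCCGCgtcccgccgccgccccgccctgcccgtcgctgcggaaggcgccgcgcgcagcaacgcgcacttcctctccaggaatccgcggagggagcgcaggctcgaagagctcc
MEG3 (chr14:100825858-100826157, plus strand): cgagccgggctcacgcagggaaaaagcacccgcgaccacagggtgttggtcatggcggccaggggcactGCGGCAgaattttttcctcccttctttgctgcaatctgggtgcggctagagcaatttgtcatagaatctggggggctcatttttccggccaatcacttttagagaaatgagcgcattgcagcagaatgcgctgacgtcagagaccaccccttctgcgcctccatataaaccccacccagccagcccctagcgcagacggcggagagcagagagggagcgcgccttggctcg
H19 (chr11:2001217-2001516, minus strand): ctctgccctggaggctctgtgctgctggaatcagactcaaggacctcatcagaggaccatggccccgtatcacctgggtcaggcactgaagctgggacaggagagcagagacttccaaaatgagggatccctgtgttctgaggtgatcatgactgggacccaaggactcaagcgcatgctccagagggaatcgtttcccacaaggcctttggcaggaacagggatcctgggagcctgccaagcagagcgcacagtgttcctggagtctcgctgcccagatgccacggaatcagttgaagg
The PLAGL1 window held 39 CpG, more than 91.3% of the 35116 windows in the table, and the NDN window 35 (more than 85.9%). MEG3 had 19 CpG and H19 6, more than 33.7% of windows. Of the genes with windows not shown, GRB10 had the richest window, with 49 CpG (more than 98.4%), above PLAGL1. The richest MEST window held 25 CpG. TGCCGC was found 2 times in the PLAGL1 window, once each in NDN and MEG3, and not in H19. TGCCGC was absent from the richest GRB10 window, and was found once in a GRB10 window with 44 CpG. The richest MEST window held TGCCGC 3 times, so the matches did not simply follow the CpG number. Over the 6 genes it was in 10 of the 20 windows, against 16.7% of all windows. Overlapping windows of MEG3 and of MEST share the same matches, so the 10 are not separate sites. The site itself contains CpG, the median over all windows was 14 CpG, and the shares were not compared at equal CpG. CAGCTG was in 1 of the 20 windows, a downstream start of MEST, where it overlaps a TGCCGC match, against 17.9% of all windows. A match describes the letters only, and no binding or methylation was measured.

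The 10 genes differed widely in level. Per kilobase of annotated exon, NDN, a MAGE family protein of the Prader-Willi region, had 46.3 ± 3.18 CPM per kb in shPROX1 and 51.2 ± 2.56 in control (SD, n = 4 each). PEG10, a gene derived from a retroelement and required for the placenta in mouse, had 39.7 ± 3.50 and 45.8 ± 2.72 CPM per kb. GRB10, an adaptor that restrains signalling from insulin and IGF1 receptors, followed with 18.1 ± 0.465 and 19.4 ± 1.04 CPM per kb. In control libraries these 3 stood above 93.1%, 92.1% and 79.5% of tested genes. PLAGL1, a zinc finger transcription factor (4.40 ± 0.394 and 5.72 ± 0.496 CPM per kb), and MEST, a hydrolase-like membrane protein (3.42 ± 0.467 and 3.95 ± 0.348 CPM per kb), were in the middle range. MEG3 (1.58 ± 0.0609 and 1.66 ± 0.209 CPM per kb) and CDKN1C (0.781 ± 0.447 and 1.87 ± 0.254 CPM per kb) came next, and H19, PEG3 and DLK1 were at the bottom. The ranges of neighbours in this order were apart in control, except CDKN1C and MEG3. In shPROX1, NDN overlapped PEG10, CDKN1C overlapped H19 and H19 overlapped PEG3.

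The order depends on the length used. MEG3 has 23224 bases of annotated exon, far more than its median transcript of 1621.5 bases. Per kilobase of the median annotated transcript, a setting chosen after seeing the data, the control levels were 118 CPM per kb for PEG10, 90.5 for GRB10, 55.5 for NDN, 23.8 for MEG3, 23.4 for PLAGL1, 22.1 for MEST and 3.13 for CDKN1C. H19 (0.991), PEG3 (0.265) and DLK1 (0.0540 CPM per kb) stayed the lowest 3 under both lengths.

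**Figure D1:**
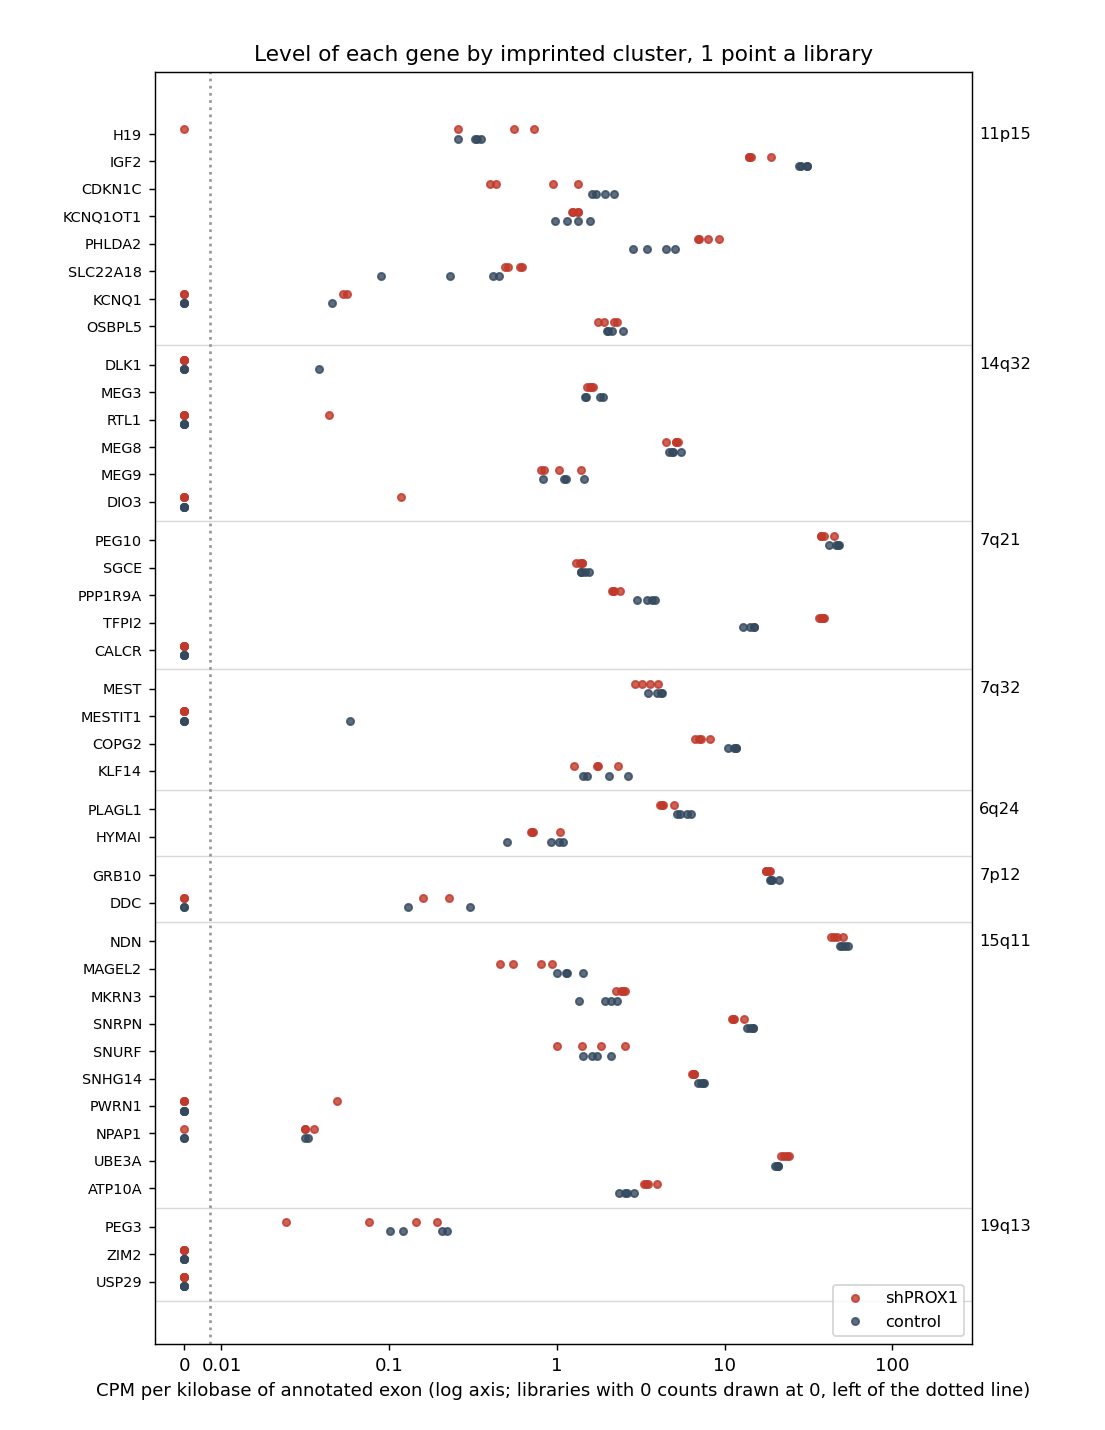
Level of the 10 genes and their listed neighbours by imprinted cluster, in CPM per kilobase of exon on a log axis, 1 point a library (shPROX1 above control in each row). NDN and PEG10 sit highest, while DLK1, RTL1, DIO3, ZIM2 and USP29 lie at or next to 0 in both groups.

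Of the 10 genes, 7 passed the filter on low counts, and 3 of these fell in shPROX1: CDKN1C, PLAGL1 and PEG10. None rose. Among all tested genes, 35.2% were called in either direction and 17.9% were called lower. The 3 of 7 is given as a description and nothing is read from it, since CDKN1C passed the filter only through the control libraries, where it was high. Tested against a 1.5-fold change (edgeR's glmTreat), 0 of the 7 were called, beside 2.98% of all tested genes. The 7 tested genes had a median log2 change of -0.21. H19, PEG3 and DLK1 were too low to test with the filter. In these bulk samples, fewer cells expressing a gene and less of its RNA per cell cannot be told apart.

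**Figure D2:**
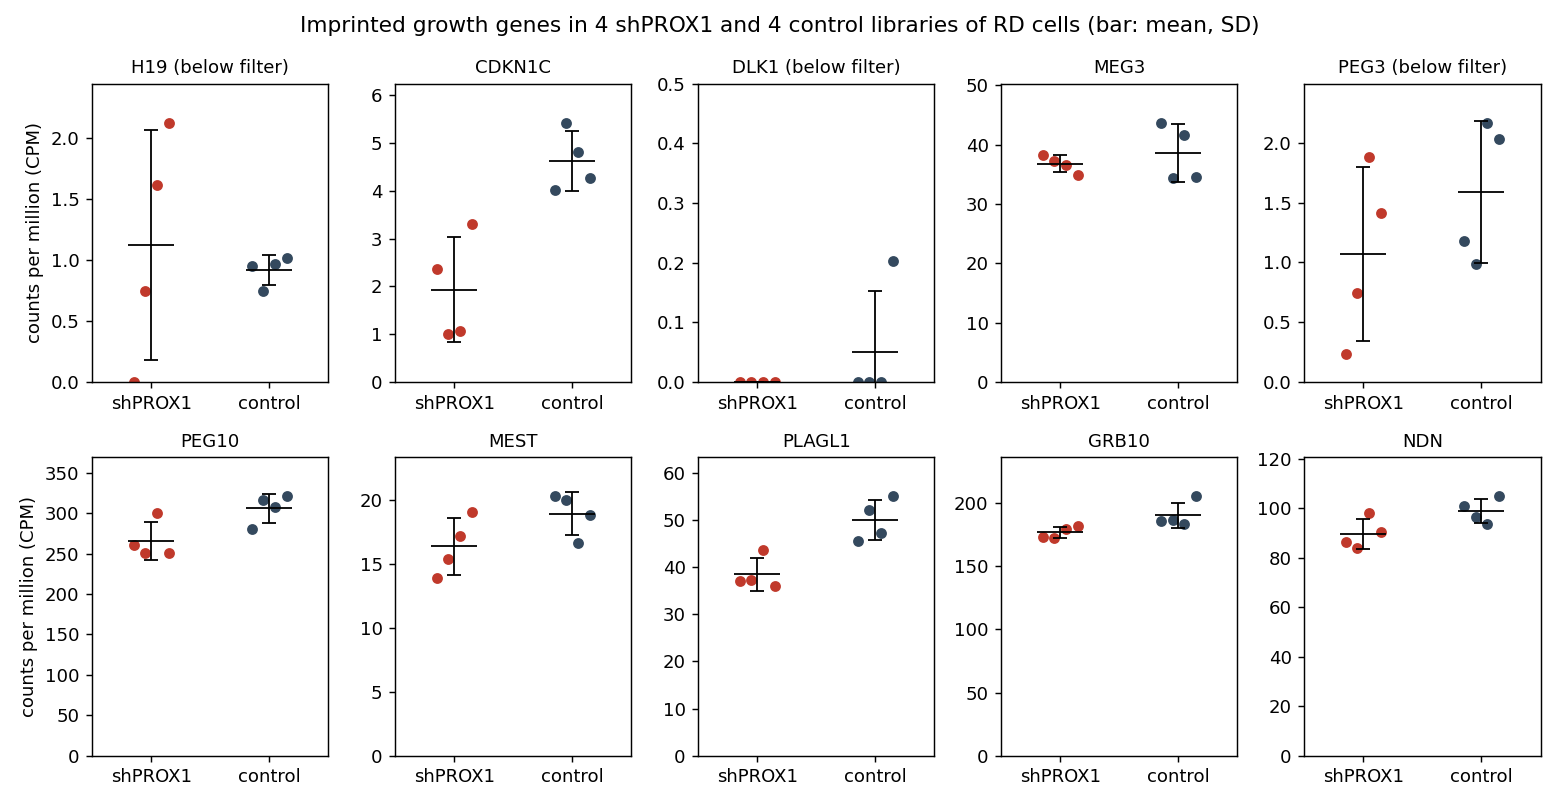
CPM of each of the 10 genes in the 4 shPROX1 (red) and 4 control (dark) libraries, with the mean and SD as black bars and each axis starting at 0. CDKN1C, PLAGL1 and GRB10 do not overlap between groups, while 1 shPROX1 library of PEG10 lies at 300.1 CPM within the control range.

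Among the growth restraining genes, CDKN1C changed most. CDKN1C (ENSG00000129757, chromosome 11, 2883213 to 2885881, minus strand, GRCh38) encodes p57, an inhibitor of cyclin-dependent kinases that is mutated in Beckwith-Wiedemann syndrome. It had 2.36, 0.994, 1.07 and 3.31 CPM in shPROX1 replicates 1 to 4, against 4.02, 5.43, 4.82 and 4.26 CPM in control replicates 1 to 4. All shPROX1 libraries lay below all control libraries, with replicates 2 and 3 at 4 counts each. CDKN1C fell to 43.1% of control (95% interval 27.6% to 67.3%, log2 change -1.21 ± 0.31, edgeR adjusted p = 0.00381). Its counts summed to 32 over the shPROX1 and 80 over the control libraries, so that the change rests on few reads. With shPROX1 counts of 10, 4, 4 and 14, it passed the filter only through the control libraries.

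PLAGL1 (ENSG00000118495, chromosome 6, 143940300 to 144064599, minus strand) encodes ZAC, which arrests the cell cycle when overexpressed and is overexpressed in transient neonatal diabetes. It had 37.1, 37.3, 43.5 and 35.9 CPM in shPROX1 replicates 1 to 4, against 45.6, 52.1, 47.2 and 55.0 CPM in control replicates 1 to 4. The groups did not overlap, and shPROX1 replicate 3 came closest to control. PLAGL1 fell to 76.5% of control (95% interval 67.8% to 86.4%, log2 change -0.39 ± 0.08, edgeR adjusted p = 9.93e-04). The noncoding RNA HYMAI, which shares 3.31% of the exon bases of PLAGL1 on the same strand, had 2.66 ± 0.549 CPM in shPROX1 and 2.97 ± 0.887 CPM in control (log2 change -0.17 ± 0.29) and did not pass. The PLAGL1 relatives PLAG1 (-0.20 ± 0.08, edgeR adjusted p = 0.0583) and PLAGL2 (-0.35 ± 0.19) did not pass either.

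GRB10 (ENSG00000106070, chromosome 7, 50590063 to 50793462, minus strand) had 174, 173, 179 and 182 CPM in shPROX1 replicates 1 to 4, against 186, 187, 184 and 205 CPM in control replicates 1 to 4. The groups did not overlap although the margin was narrow, and control replicate 4 stood apart at the top. Its log2 change of -0.11 ± 0.05 did not pass (95% interval -0.21 to -0.000395, edgeR adjusted p = 0.113). Among tested genes, 32.4% had groups that did not overlap, and 16.1% did so with shPROX1 lower, as did 3 of the 7 tested members (CDKN1C, PLAGL1 and GRB10).

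NDN (ENSG00000182636, chromosome 15, 23685400 to 23687330, minus strand) encodes necdin, which binds E2F1 and restrains growth of neurons in mouse. NDN had 86.3, 83.7, 97.8 and 90.2 CPM in shPROX1 replicates 1 to 4, against 100.7, 96.3, 93.5 and 104.8 CPM in control replicates 1 to 4. Its shPROX1 replicate 3 lay within the control range and the other shPROX1 libraries below it. The log2 change of -0.15 ± 0.06 did not pass (95% interval -0.27 to -0.02, edgeR adjusted p = 0.0712). Without shPROX1 replicate 3 it was called (-0.19, edgeR adjusted p = 0.0281).

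PEG3 (ENSG00000198300, chromosome 19, 56810083 to 56840728, minus strand), a large zinc finger protein, was barely detected. It had 1, 3, 7 and 6 counts in shPROX1 replicates 1 to 4, against 5, 4, 9 and 10 counts in control replicates 1 to 4. The groups overlapped, and a fit without the filter gave a log2 change of -0.59 with a 95% interval of -1.51 to 0.32, which leaves the direction undetermined at this depth. PEG3 shares 12.9% of its exon bases with ZIM2 on the same strand, which with USP29 had 0 counts in all 8 libraries.

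Among genes tied to growth promotion or development, PEG10 was the most abundant by CPM of the 10. PEG10 (ENSG00000242265, chromosome 7, 94656325 to 94669695, plus strand) had 260, 251, 300.1 and 251 CPM in shPROX1 replicates 1 to 4, against 280.3, 316, 307 and 321 CPM in control replicates 1 to 4. Replicates 1, 2 and 4 of shPROX1 lay below every control library, and replicate 3 lay among them. PEG10 fell to 86.7% of control (95% interval 79.6% to 94.4%, log2 change -0.21 ± 0.06, edgeR adjusted p = 0.00887). Among other genes that derive from the same retroelement family, 6 of 12 were tested and ARC rose, whereas the other tested relatives did not pass. ARC had 6.44 ± 2.07 CPM in shPROX1 and 2.92 ± 0.871 CPM in control (log2 change 1.16 ± 0.27, edgeR adjusted p = 0.00172).

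MEST (ENSG00000106484, chromosome 7, 130486171 to 130506296, plus strand) had 13.95, 15.4, 17.2 and 19.1 CPM in shPROX1 replicates 1 to 4, against 20.3, 19.998, 16.6 and 18.9 CPM in control replicates 1 to 4. The groups overlapped, and the log2 change of -0.21 ± 0.13 did not pass (95% interval -0.47 to 0.05, edgeR adjusted p = 0.215). MEST and PEG10 thus had nearly the same fitted change, with 266 counts in shPROX1 and 329 in control for MEST and 4292 and 5323 for PEG10. The Wnt coreceptor LRP6, whose maturation MEST is known to hinder in mouse fat cells, fell (-0.16 ± 0.05, edgeR adjusted p = 0.0253), and CTNNB1 had a log2 change of -0.01 ± 0.04 that did not pass.

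DLK1 (ENSG00000185559, chromosome 14, 100725705 to 100738224, plus strand), a Notch-related membrane protein of immature muscle and fat cells, had no count in 7 of 8 libraries. It had 0 counts in all shPROX1 libraries, against 0, 0, 0 and 1 counts in control replicates 1 to 4. The limit that 0 counts set on the level, taken as 3 counts, lay between 0.708 and 0.806 CPM over those 7 libraries (counting error only).

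Neither noncoding RNA was called. MEG3 is a nuclear RNA linked to growth arrest, and H19 is an RNA abundant in fetal muscle and liver. MEG3 (ENSG00000214548, chromosome 14, 100779410 to 100861031, plus strand) had 38.3, 37.3, 36.5 and 34.9 CPM in shPROX1 replicates 1 to 4, against 43.7, 34.3, 41.7 and 34.5 CPM in control replicates 1 to 4. All shPROX1 libraries lay within the control range, and the log2 change of -0.07 ± 0.09 did not pass (95% interval -0.25 to 0.12, edgeR adjusted p = 0.619). H19 (ENSG00000130600, chromosome 11, 1995163 to 2001470, minus strand) had 0, 3, 6 and 9 counts in shPROX1 replicates 1 to 4, against 4, 3, 4 and 5 counts in control replicates 1 to 4. The shPROX1 libraries lay on both sides of the control libraries. A fit without the filter gave a log2 change of 0.27 with a 95% interval of -0.77 to 1.31. That interval includes both a 1.5-fold rise and a 1.5-fold fall, so the direction is undetermined.

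Genes of the list also carry microRNAs within their transcripts, of which the 5p arms are shown with the seed (bases 2 to 8) in capitals, as RefSeq gives them.
hsa-miR-675-5p (in H19): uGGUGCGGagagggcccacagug
hsa-miR-335-5p (in MEST): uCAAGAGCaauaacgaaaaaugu
hsa-miR-770-5p (in MEG3): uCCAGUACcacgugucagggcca
The 3 seeds differ from each other. The precursor gene MIR675 had 0 counts in all 8 libraries, MIR335 1 count in shPROX1 and 0 in control, and MIR770 2 counts in shPROX1 and 3 in control. Reads were counted over genes of long RNA libraries, so these counts do not measure the mature microRNAs.

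**Figure D3:**
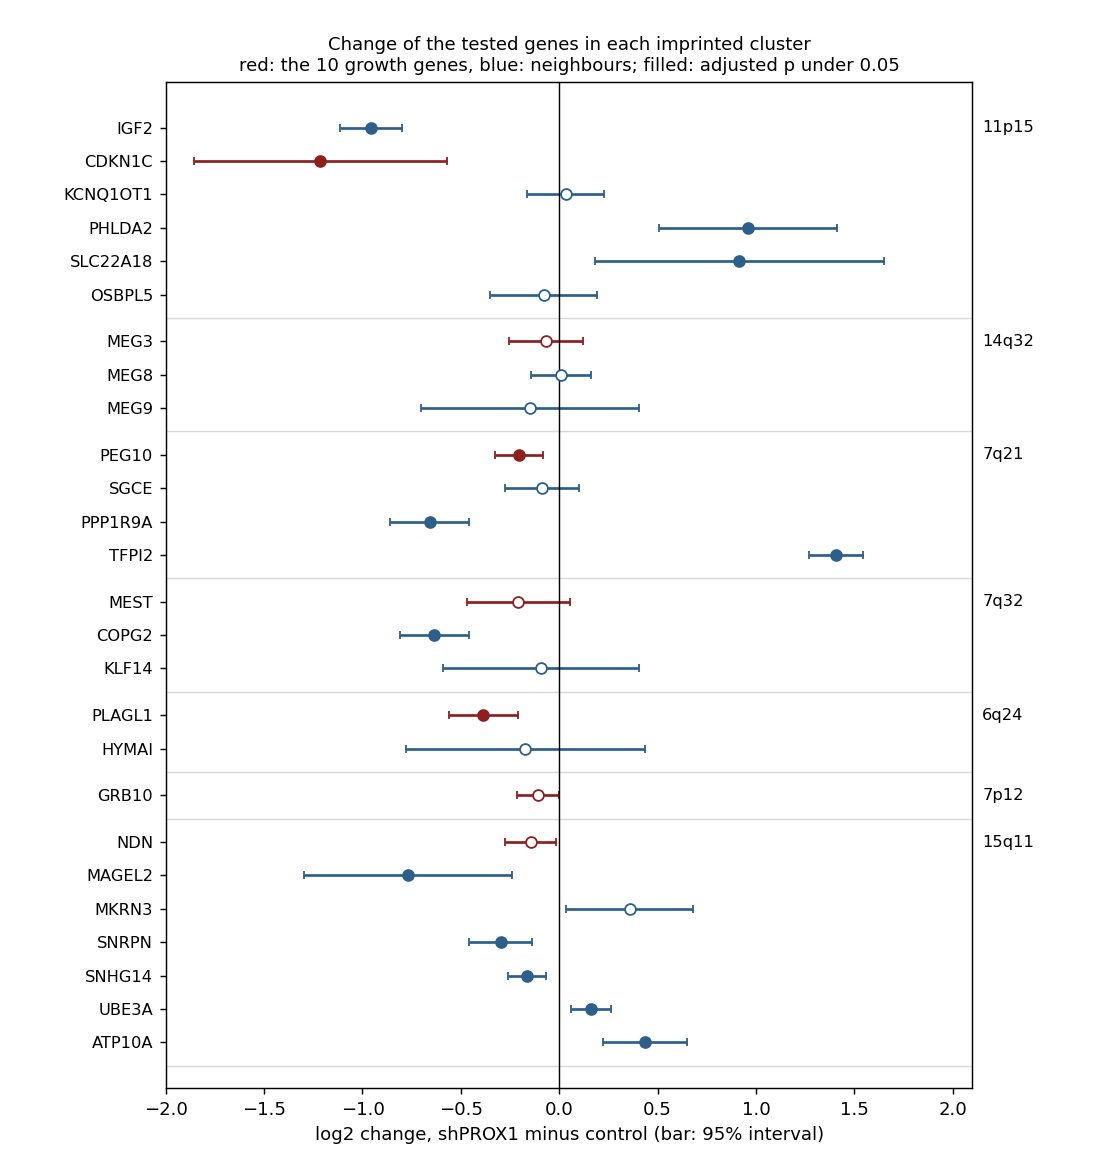
Log2 change (shPROX1 minus control) with its 95% interval for the tested genes of each imprinted cluster, the 10 growth genes in red, neighbours in blue and calls filled. Within 11p15, CDKN1C and IGF2 lie below 0 and PHLDA2 and SLC22A18 above it, and within 7q21 PEG10 and PPP1R9A lie below 0 and TFPI2 above it.

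Within clusters, neighbours did not move as 1 block. At 11p15, the fetal growth factor IGF2, expressed from the paternal copy next to H19, fell to 107 ± 16.8 CPM in shPROX1, against 206 ± 12.03 CPM in control (SD, n = 4 each, log2 change -0.96 ± 0.08). KCNQ1OT1, the paternal noncoding RNA that silences CDKN1C in cis, had 118 ± 5.31 CPM in shPROX1 and 115 ± 23.9 CPM in control (0.03 ± 0.09) and did not pass. PHLDA2, a maternally expressed gene that restrains placental growth and lies beside CDKN1C, rose to 7.44 ± 1.05 CPM in shPROX1, against 3.78 ± 0.944 CPM in control (0.96 ± 0.22, edgeR adjusted p = 0.00146). SLC22A18 rose as well (0.91 ± 0.35, edgeR adjusted p = 0.0485), a call lost under 10 of 15 alternatives. With control counts of 2, 9, 10 and 6, SLC22A18 passed the filter only through the shPROX1 libraries.

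At 14q32 the maternally expressed noncoding RNAs were present and the paternally expressed coding genes were not. MEG8 had 55.7 ± 3.89 CPM in shPROX1 and 55.4 ± 4.08 CPM in control (log2 change 0.01 ± 0.07), and MEG9 3.27 ± 0.864 and 3.64 ± 0.835 CPM (-0.15 ± 0.27). Neither passed, as for MEG3. DLK1, RTL1 and DIO3 together had 2 counts over the shPROX1 libraries and 1 count over the control libraries.

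At 7q21, PEG10 and its head-to-head neighbour SGCE, a sarcoglycan, are both paternally expressed. SGCE had 28.6 ± 1.16 CPM in shPROX1 and 30.3 ± 1.60 CPM in control (log2 change -0.09 ± 0.09) and did not pass. PPP1R9A, which encodes neurabin, fell (24.7 ± 1.20 CPM in shPROX1 and 39.0 ± 4.19 CPM in control, -0.66 ± 0.10), and TFPI2, a serine protease inhibitor of the matrix, rose (101 ± 2.91 and 38.2 ± 2.64 CPM, 1.41 ± 0.07). At 7q32, COPG2, a coatomer subunit that shares 228 exon bases with MEST on the other strand, fell to 30.2 ± 2.74 CPM in shPROX1, against 46.8 ± 2.30 CPM in control (-0.63 ± 0.08, edgeR adjusted p = 3.09e-06). Reads in such overlaps may be shared or lost, since neither the strand setting nor the handling of overlapping genes is given in the sources used here. IGF2 shares 20.9% of its exon bases with INS-IGF2 on the same strand, so this limit applies to IGF2 too.

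At 15q11, paternally expressed genes near NDN were lower or undecided. MAGEL2, the closest relative of NDN in the cluster, fell to 2.96 ± 0.948 CPM in shPROX1, against 5.07 ± 0.763 CPM in control (log2 change -0.77 ± 0.26, edgeR adjusted p = 0.0218). That call was lost with DESeq2 (adjusted p = 0.0792) and without control replicate 1 or shPROX1 replicate 1 or 2 (edgeR adjusted p = 0.065, 0.0738 and 0.0847). With shPROX1 counts of 10, 8, 13 and 17, MAGEL2 passed the filter only through the control libraries. The splicing protein gene SNRPN (-0.30 ± 0.08) and the long noncoding RNA SNHG14 that continues from it (-0.16 ± 0.05) fell, while MKRN3 (0.36 ± 0.16, edgeR adjusted p = 0.0792) did not pass. UBE3A (0.16 ± 0.05) and ATP10A (0.44 ± 0.10), listed as maternally expressed there, rose. SNHG14 runs antisense to UBE3A, and the limit on overlapping genes applies to that pair too.

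Ratios of neighbours within a library do not depend on the scaling of libraries. The log2 ratio of PEG10 to SGCE counts was 3.21 ± 0.142 in shPROX1 and 3.33 ± 0.0736 in control (SD, n = 4 each, exact two-sided permutation p = 0.229). For MEST to COPG2 it was -0.88 ± 0.275 and -1.30 ± 0.182 (exact p = 0.0571). For H19 to IGF2 it was -7.05 ± 1.84 and -7.65 ± 0.222 (exact p = 0.6). Its difference of 0.60 rests on single libraries and on the added count: it was 1.48 without shPROX1 replicate 1, where H19 had 0 counts, 0.07 without shPROX1 replicate 4, and 0.93 with 2 added to each count. For MEG3 to DLK1 it was 8.22 ± 0.103 and 7.98 ± 0.788 (exact p = 0.886), a value set by the 0.5 added to a DLK1 count of 0. None of the 4 ratios passed (Benjamini-Hochberg adjusted exact p of 0.229 to 0.886), and 70 arrangements allow no exact p below 0.0286.

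**Figure D4:**
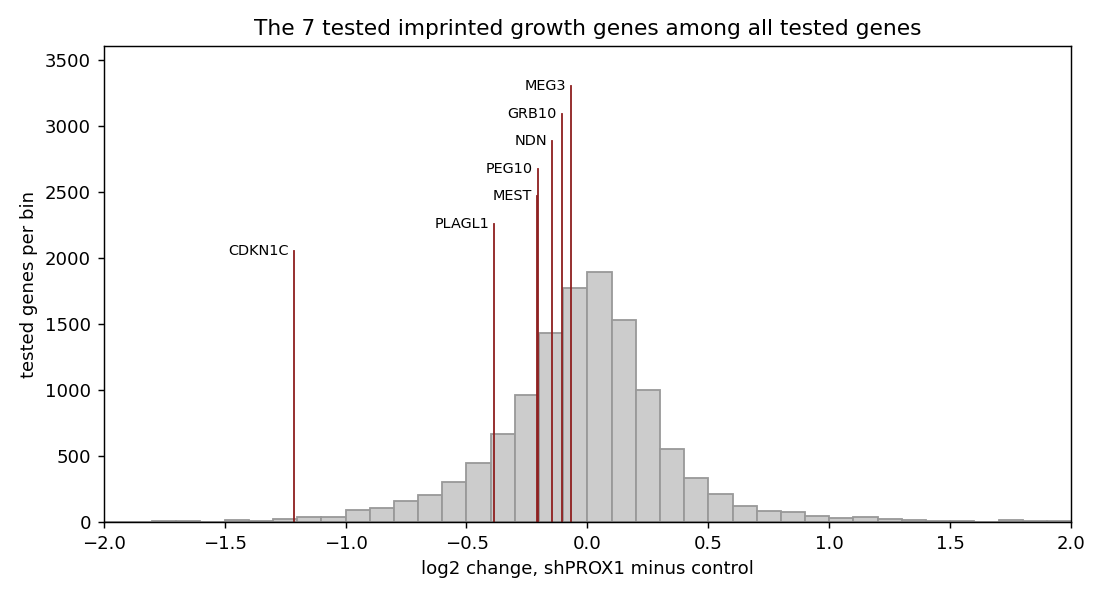
Histogram of log2 changes (shPROX1 minus control) of the tested genes in bins of 0.1, with the 7 tested imprinted growth genes as red lines (37 genes beyond ±2 are not drawn). Except for CDKN1C at -1.21 and PLAGL1 at -0.39, the lines lie between -0.21 and -0.07, within the bulk of all genes.

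Imprinted genes outside the 10 went both ways. Of 52 further imprinted genes matched, 32 were tested, 8 were higher and 8 lower in shPROX1 (50% called, against 35.2% of all tested genes), and their median log2 change was -0.0033. The genes drawn up as paternally expressed counted 2 higher and 6 lower among 17 tested, and those drawn up as maternally expressed 6 higher and 2 lower among 15 tested, where 17.3% of all tested genes were higher and 17.9% lower. Allele use differs between tissues for several of these genes, among them GNAS, UBE3A and COPG2, which were called. The placement of ZNF597 and ZFAT, neither of them called, is uncertain. KLF14, not called either, was counted as paternally expressed here although it is known as a maternally expressed gene. MAGEL2 and SLC22A18, both called, passed the filter only through the group where each was high. The classes behind these counts are thus partly uncertain. The difference between these counts was not tested. The amino acid transporter gene SLC38A4 (263 ± 14.003 CPM in shPROX1 and 154 ± 11.5 CPM in control, log2 change 0.78 ± 0.06) rose, and NNAT, a small membrane protein of neurons, fell (226 ± 9.78 and 325 ± 17.7 CPM, -0.53 ± 0.05). BLCAP, the host in whose intron NNAT lies, had 173 ± 6.65 and 175 ± 4.77 CPM (-0.02 ± 0.05) and did not pass.

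Of 28 listed genes that set or keep imprints, 24 were tested, 2 were higher and 5 lower (median log2 change -0.03). The 29.2% called is near the 35.2% of all tested genes. ZFP57, the reader of TGCCGC, had 0 counts in all 8 libraries, as had DNMT3L and DPPA3. TRIM28, the corepressor that zinc finger proteins of this kind recruit, had 753 ± 23.0 CPM in shPROX1 and 702 ± 20.7 CPM in control (0.10 ± 0.04, edgeR adjusted p = 0.0508). TRIM28 was called higher under 6 alternatives, among them DESeq2 (adjusted p = 0.0360), and not under the other 9. The de novo methyltransferase DNMT3A (35.9 ± 0.715 and 55.7 ± 2.78 CPM, -0.63 ± 0.07) and the 5-methylcytosine oxidase TET1 (12.5 ± 2.11 and 19.8 ± 2.095 CPM, -0.67 ± 0.14) fell. UHRF1, which guides maintenance methylation, rose (855 ± 24.8 and 697 ± 6.80 CPM, 0.29 ± 0.04). SUZ12, of the Polycomb complex, fell (-0.33 ± 0.11, edgeR adjusted p = 0.0251) with overlapping groups, and this call was lost without control replicate 4 (-0.21, edgeR adjusted p = 0.138) and without shPROX1 replicates 1, 2 or 4 (edgeR adjusted p = 0.117, 0.0573 and 0.0963).

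Partners and relatives of the 10 genes went both ways too. Of 49 such genes matched, 43 were tested, 11 were higher and 8 lower in shPROX1 (44.2% called, median log2 change -0.05), beside 35.2% called, 17.3% higher and 17.9% lower, over all tested genes. The groups below are small, and their counts are descriptions. Among cell cycle genes that CDKN1C acts on, 3 rose and 1 fell of 9, with CCND1 (cyclin D1) at 496 ± 8.0 CPM in shPROX1 and 252 ± 7.97 CPM in control (0.97 ± 0.05). Of 5 genes listed for GRB10 and the receptor signalling it restrains, 3 rose and 1 fell, with the insulin receptor substrate IRS2 at 9.87 ± 2.72 and 4.54 ± 0.922 CPM (1.12 ± 0.22). The ubiquitin ligase NEDD4, a GRB10 partner, also rose (0.74 ± 0.07). Of 4 genes of DLK1 processing and Notch, 1 rose and 2 fell, with the receptor NOTCH3 at 69.7 ± 7.98 and 124 ± 7.16 CPM (-0.83 ± 0.07). Of 5 relatives and partners of NDN, 0 rose and 2 fell, MAGEL2 among them, which passed the filter only through the control libraries. None of the 3 PEG3 partners was called.

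Genes with profiles most like those of the 3 most abundant members were found by the root mean squared difference of centred log2 CPM over the 8 libraries. For PEG10, the closest of 11402 protein-coding genes was ZEB2, a zinc finger transcription factor (difference 0.0270, against a median of 0.211), followed by the heterochromatin protein CBX5 (0.0337) and ERCC6L2 (0.0362). For GRB10 they were EXOSC10 (0.0303), ZNF268 (0.0320) and UNC13B (0.0346). For NDN they were the histone gene HIST2H2BE (0.0320), the imprinted gene GNAS (0.0341) and PIGU (0.0376). Of these 9 genes, ZEB2, CBX5 and GNAS were called, all lower in shPROX1 (edgeR adjusted p = 0.0256, 0.0181 and 0.00647). Over all tested genes, 35.2% were called. The 8 libraries fall into 2 groups, so the measure includes the difference between groups. The direction of these genes thus follows from how they were picked, and nothing is read from their calls.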

How the data were processed

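RNA of 4 shPROX1 and 4 control RD cell libraries was sequenced. The authors deposited a table of raw counts per gene for each library. Per the submitters' processing notes, the tools were HISAT2, HTSeq, FastQC and DESeq2 and the build GRCh38 (hg38), with no versions. The strand setting is not given in the sources used here, and neither is whether replicates came from separate cultures, so p-values measure only the spread between these libraries. Between pairs of shPROX1 libraries, chi-square over degrees of freedom was 1.19 to 2.16, and between control pairs 2.39 to 6.34. Larger values mean more spread beyond counting error, so shPROX1 libraries differed less among themselves than control libraries.

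Of 58302 genes, 58039 matched GENCODE 29 by identifier. Depth was 3747090 to 4865161 counts per library. After the filterByExpr filter of edgeR 4.0.16 (R 4.3.3), 12392 genes were tested with TMM factors and the quasi-likelihood test, with Benjamini-Hochberg adjustment over all of them and a threshold of 0.05. Intervals are at 95%, and floors of 3 counts cover counting error only. Ratios were compared by exact permutation. Alternatives were RLE and upper-quartile factors, 2 other filters, DESeq2 1.42.0, limma 3.58.1 (voom), a replicate block, glmTreat against 1.5-fold, a threshold of 0.01 and leaving out each library. On simulated data of 12267 genes, the test recovered 70.5% of 78 genes changed by 0.5, 96.2% of 78 changed by 1 and 100% of 39 changed by 2 on the log2 scale. Only 200 genes were changed there, against 4364 called in the data, and genes of all levels were pooled. These shares check the procedure and do not give its power for these data or for low genes such as CDKN1C.

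The members and lists were chosen with earlier results of these data known. Named from each list were up to 4 called genes of largest change with a mean of at least 1 CPM, and the most abundant uncalled gene. For the 3 most abundant members, the 3 nearest profiles were named. The other cluster neighbours, the cell type markers, LRP6, NEDD4, PLAG1 and PLAGL2 were named after their values were seen, as were the regulators with 0 counts.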

Additional observations from a re-analysis of the deposited data

Results flagged for a closer look

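In 5 of 74 groups of 4 libraries checked, 1 library lay apart from the other 3 by more than Dixon's 95% critical value, a share of the range of its group. Chance alone flags about 1 in 20 groups. Among the 10 genes, GRB10 had 205.4 CPM in control replicate 4, and DLK1 had 0.203 CPM in the same library, which held its only count. Among the other genes described, IGF2 had 131.7 CPM in shPROX1 replicate 3. PPP1R9A had 26.5 CPM in shPROX1 replicate 1. UHRF1 had 891.9 CPM in shPROX1 replicate 4.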

How the results depend on the processing

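The calls of CDKN1C, PLAGL1 and PEG10 held under the other scalings, filters and tests, the replicate block, the threshold of 0.01 and each library left out, with 3 to 4 members called without 1 library, the additional one being NDN without shPROX1 replicate 3. Against a 1.5-fold change (glmTreat) 369 genes were called, 204 higher and 165 lower. There 0 members (0 lower), 3 other imprinted genes (2 higher, 1 lower), 0 regulators (0 higher, 0 lower) and 2 partner genes (1 higher, 1 lower) were called. At a threshold of 0.01, 4 other imprinted genes were higher, 4 regulators were called (1 higher, 3 lower) and 4 partner genes were lower. Leaving out 1 library gave 4 to 7 regulators called (1 to 2 higher, 3 to 5 lower), 5 to 8 other imprinted genes higher and 6 to 12 partner genes lower. The difference in the log2 MEG3 to DLK1 ratio was -0.00903 with 2 added to each count and -0.14 to 0.42 without 1 library (below 0 without control replicate 4). Changes near 0 turned direction for KCNQ1OT1 (-0.0752 to 0.1701 without 1 library, below 0 without control replicate 1 or 2), BLCAP (-0.0289 to 0.0104, above 0 without control replicate 2 or shPROX1 replicate 1) and CTNNB1 (-0.0256 to 0.00938, above 0 without control replicate 1 or shPROX1 replicate 3). The cause was not tested. With the replicate block 4187 genes and 3 members were called. Deviations of libraries with the same number correlated at -0.0512 to 0.0519, so the numbers were not taken as pairs. A floor of 0.708 to 0.806 CPM limits DLK1 in the libraries where it had 0 counts, and a floor of 0.709 CPM limits H19 in shPROX1 replicate 1. In the other libraries H19 was detected at few counts, as was PEG3 in all libraries.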
